A study of Mus musculus with 15 samples.

Results

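The C/EBP transcription factors were followed through loss of oncogenic NRAS in a mouse acute myeloid leukemia. Of the 6 genes sought by exact symbol (Cebpa, Cebpb, Cebpd, Cebpe, Cebpg and Cebpz), 4 were found, with 8 probe sets between them, among 18193 genes that had a probe set under a single symbol. Cebpa had 1 probe set, Cebpb 2, Cebpd 2 and Cebpg 3. Cebpe and Cebpz had none under their own symbol alone and were not analysed here.

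C/EBP proteins are basic leucine zipper factors that bind DNA as dimers, with each other or with related factors such as ATF4. In the myeloid lineage C/EBPα drives progenitors toward granulocytes and monocytes, C/EBPβ serves emergency granulopoiesis and macrophage genes, and C/EBPδ is induced during inflammation and granulocyte maturation. C/EBPγ lacks a strong activation domain, dampens other family members and pairs with ATF4. C/EBPε governs late granule genes, whereas Cebpz, despite its name, encodes a nucleolar protein outside the zipper family.

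RNA was measured on 15 Affymetrix Mouse Genome 430 2.0 arrays. All samples were primary leukemia cells of genotype NRASG12V/Mll-AF9 taken from spleens of SCID/Beige mice, which lack most lymphocytes and keep their own myeloid, erythroid and stromal cells; the leukemia had been given by tail vein and grown to full disease. The RAS-ON group holds 5 arrays of vehicle-treated leukemia at 0 h, and each RAS-OFF group is a pair of arrays, taken 48, 60, 72, 84 or 96 h after the start of doxycycline, given by injection and drinking water to shut off the NRAS transgene. Every group carries Mll-AF9 throughout. There was no vehicle group at later times and no doxycycline group without the transgene, so loss of NRAS, the drug and the hours passed cannot be told apart. The ages of the mice, the number of starting leukemias and the promoters driving the transgenes do not appear in the labels.

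Array medians lay between 149.99 and 156.53 intensity units. RAS-ON replicates 4 and 5 stood apart from replicates 1 to 3: the SD of the log2 difference over all genes was 0.236 to 0.302 between these sets, against 0.166 to 0.219 among replicates 1 to 3 and 0.169 between 4 and 5. RAS-OFF 96 h replicate 1 had a Gapdh 3-prime minus 5-prime difference, a sign of RNA integrity, of 1.22 on the log2 scale, against 0.10 to 0.35 elsewhere. Nras itself had a RAS-ON mean of 10.94 ± 0.18 log2 units (SD, n = 5) and a RAS-OFF mean of 10.62 ± 0.17 (SD, n = 10), a change of -0.31 ± 0.09 (SE; limma adjusted p = 0.00725), with 7 of 10 RAS-OFF arrays below every RAS-ON array; whether its probes read the transgene is not in the labels. All 7 MLL-fusion leukemia markers were measured, with Hoxa9 at 9.98 ± 0.28 and Meis1 at 7.51 ± 0.41 log2 units in RAS-ON (SD, n = 5).

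The promoters of Cebpa and Cebpb, the members that moved together below, and of Cebpg, which lies near Cebpa and did not pass the test, are shown as the 250 bases before the RefSeq gene start in GRCm38.p6. They are Cebpa, chr7:35119043-35119292 on the + strand, Cebpb, chr2:167688665-167688914 on the + strand, and Cebpg, chr7:35056567-35056816 on the - strand. Capitals mark matches on either strand to CCAAT (the CCAAT box), TGACG (the core of the cAMP response element) or TATAAA (the TATA box).
Cebpa: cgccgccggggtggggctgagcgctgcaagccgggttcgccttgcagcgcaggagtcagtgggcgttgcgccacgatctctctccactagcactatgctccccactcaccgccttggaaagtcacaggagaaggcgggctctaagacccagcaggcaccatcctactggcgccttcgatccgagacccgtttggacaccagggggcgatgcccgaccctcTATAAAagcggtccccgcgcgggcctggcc
Cebpb: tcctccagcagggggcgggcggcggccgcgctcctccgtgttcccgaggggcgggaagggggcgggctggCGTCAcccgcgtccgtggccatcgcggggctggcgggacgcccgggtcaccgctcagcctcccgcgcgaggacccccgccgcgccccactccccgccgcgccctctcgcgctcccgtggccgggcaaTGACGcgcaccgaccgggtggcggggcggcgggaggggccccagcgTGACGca
Cebpg: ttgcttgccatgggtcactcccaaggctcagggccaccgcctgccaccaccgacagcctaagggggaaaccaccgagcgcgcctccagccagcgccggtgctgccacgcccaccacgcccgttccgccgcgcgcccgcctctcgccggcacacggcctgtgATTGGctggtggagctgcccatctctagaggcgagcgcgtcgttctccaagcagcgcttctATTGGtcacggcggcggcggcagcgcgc
The Cebpa window held 1 TATAAA, beginning 30 bases before the start, a motif present in 12.4% of 32851 promoter windows of the same length. The Cebpb window held 3 TGACG matches, at 180 bases (on the opposite strand), 53 bases and 7 bases before the start, and 17.8% of windows held at least 1. The Cebpg window held 2 CCAAT boxes, both on the opposite strand, at 89 and 28 bases, and 33.8% of windows held at least 1. The C/EBP palindrome core TTGCNNAA was found in none of these 3 windows and in 9.56% of all windows. Only exact matches were counted, so C/EBP sites that differ from these letters would be missed. The G and C content was 66.4% for Cebpa, 81.6% for Cebpb and 70.8% for Cebpg. Cebpa (chr7:35119293-35121928) and Cebpg (chr7:35046422-35056566) are separated by 62.7 kb that holds 1 annotated gene, Gm35611.

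Cebpa and Cebpb fell in every RAS-OFF array, while Cebpd and Cebpg did not pass the test for the RAS-OFF mean. These are 2 members called lower of 4, in a comparison where 48.8% of all genes were called, 28.7% lower and 20.1% higher, and where the median change of all genes was -0.04 log2 units. A gene was called at a limma adjusted p below 0.05 over all 18193 genes.

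Cebpa, the progenitor factor, had RAS-ON intensities of 1767, 1647, 1398, 1410 and 1432. After doxycycline the 48 h arrays read 826 and 628, the 60 h arrays 654 and 720, the 72 h arrays 504 and 553, the 84 h arrays 472 and 427, and the 96 h arrays 459 and 374. All 10 RAS-OFF arrays lay below all 5 RAS-ON arrays, as they did for 12% of all genes (9.36% had all RAS-OFF arrays above), and the later arrays were the lowest. The mean log2 intensity went from 10.57 ± 0.15 (SD, n = 5) to 9.09 ± 0.36 (SD, n = 10, which includes differences between times). The change was -1.48 ± 0.08 log2 units (SE), a 2.79-fold lower level (limma adjusted p = 1.98e-09), which ranked 76 from the lowest of 18193 genes.

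Cebpb, the factor of emergency granulopoiesis and macrophages, had RAS-ON intensities of 5362, 4441, 4302, 4058 and 5245. The 48 h arrays read 2311 and 2101, the 60 h arrays 1814 and 2102, the 72 h arrays 1517 and 1638, the 84 h arrays 1398 and 1192, and the 96 h arrays 1517 and 1155. Again the groups did not overlap in any array. The mean log2 intensity went from 12.18 ± 0.18 (SD, n = 5) to 10.67 ± 0.34 (SD, n = 10), a change of -1.51 ± 0.08 (SE) or 2.85-fold lower (limma adjusted p = 2.35e-09), ranking 68 from the lowest. The second Cebpb probe set ran from 1349 to 2123 in RAS-ON and from 298 to 866 in RAS-OFF, and its change was -1.82 ± 0.11 (SE; limma adjusted p = 1.52e-08 over all probe sets tested separately).

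Cebpd, the inflammation-induced member, had RAS-ON intensities of 2394, 2758, 2160, 1952 and 2394. The 48 h arrays read 3528 and 3362, the 60 h arrays 2954 and 3302, the 72 h arrays 2431 and 2552, the 84 h arrays 1889 and 1958, and the 96 h arrays 1844 and 1751. The 4 earliest RAS-OFF arrays were above every RAS-ON array, and 3 of the 84 h and 96 h arrays were below every RAS-ON array. The mean over RAS-OFF times therefore held both directions: 11.27 ± 0.39 (SD, n = 10) against 11.18 ± 0.19 (SD, n = 5) log2 units, a difference of 0.09 ± 0.07 (SE; 95% interval -0.05 to 0.24; limma adjusted p = 0.283). The second Cebpd probe set was dim, at 158 to 203 in RAS-ON and 159 to 203 in RAS-OFF, and differed by -0.01 ± 0.07 log2 units (SE); it was called at no time.

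Cebpg, the family's inhibitory member and ATF4 partner, had RAS-ON intensities of 885, 1038, 979, 358 and 691. Its 10 RAS-OFF arrays ran from 900 to 1057. The low values were RAS-ON replicates 4 and 5, the arrays that stood apart, and the other 3 RAS-ON arrays lay among or just below the RAS-OFF values. The difference was 0.40 ± 0.19 log2 units (SE; 95% interval 0.00054 to 0.80; limma adjusted p = 0.0914). It was 0.02 against RAS-ON replicates 1 to 3 alone and 0.98 against replicates 4 and 5 alone (limma adjusted p = 0.000328), and it passed without RAS-ON replicate 2 (0.52, adjusted p = 0.0375) or replicate 3 (0.50, adjusted p = 0.0456).

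The other Cebpg probe sets showed the same split among the RAS-ON arrays. Replicates 4 and 5 minus replicates 1 to 3 came to -0.96, -0.46 and -0.44 log2 units on the 3 probe sets, against -0.17 for Cebpa, -0.02 and -0.20 on the Cebpb probe sets, and -0.17 and 0.22 on those of Cebpd. The RAS-OFF differences on the other Cebpg probe sets were 0.08 ± 0.11 and 0.19 ± 0.10 (SE), neither called. Summed intensities of several gene lists also separated these arrays. Red pulp macrophage sums were 13.85 and 13.98 log2 units in replicates 4 and 5, against 13.50 to 13.74 in replicates 1 to 3. Erythroid sums were 15.06 and 15.14 against 15.21 to 15.38. The widest gap was in eosinophil and basophil markers. Their sums were 13.17 and 13.11 log2 units in replicates 4 and 5 and 11.27 to 11.90 in replicates 1 to 3. RAS-OFF arrays ran from 12.73 to 13.97. Of this list 6 of 7 were measured, and in RAS-OFF 3 rose, 1 fell and 2 did not pass. The sum adds linear intensities, so Prg2, the brightest on average, weighs most. Prg2 changed by 1.72 and Mcpt8 by -2.21. The part of these lists in the Cebpg values was not tested.

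**Figure D1:**
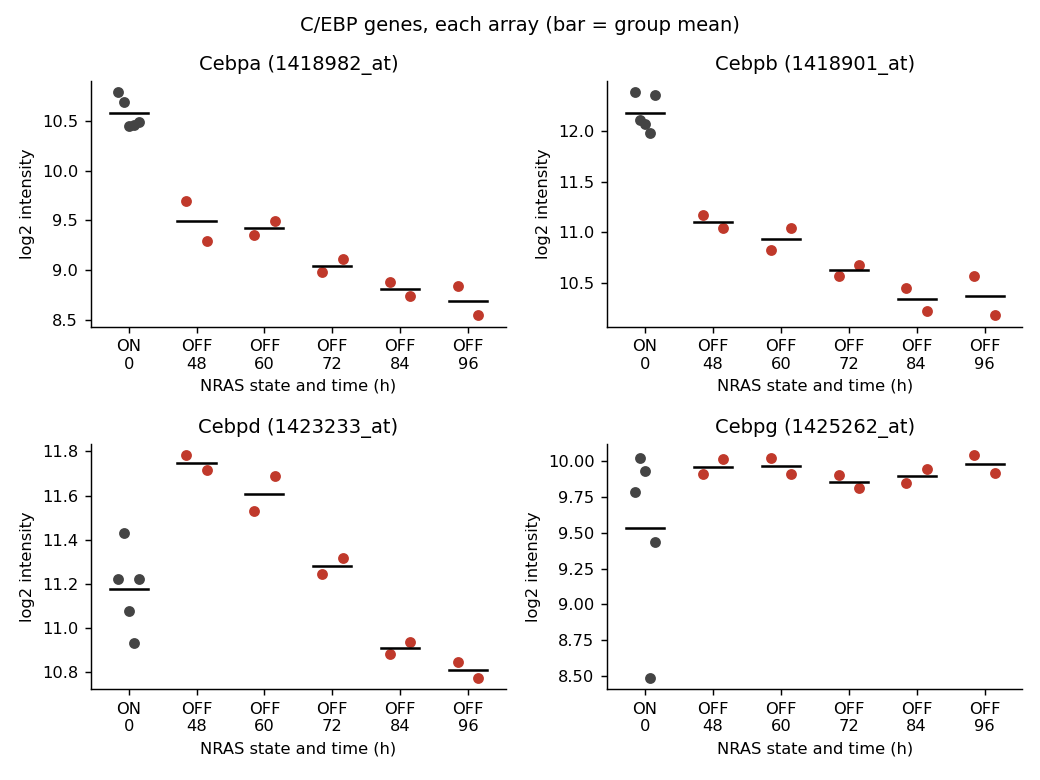
Log2 intensity of the 4 measured C/EBP genes (vertical axis, 1 panel per gene) in each of 15 arrays by NRAS state and hours of doxycycline (horizontal axis); points are arrays and lines are group means. All 10 RAS-OFF arrays are below all 5 RAS-ON arrays for Cebpa and Cebpb, Cebpd starts high at 48 h and ends low at 96 h, and the wide RAS-ON spread of Cebpg comes from replicates 4 and 5.

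**Figure D2:**
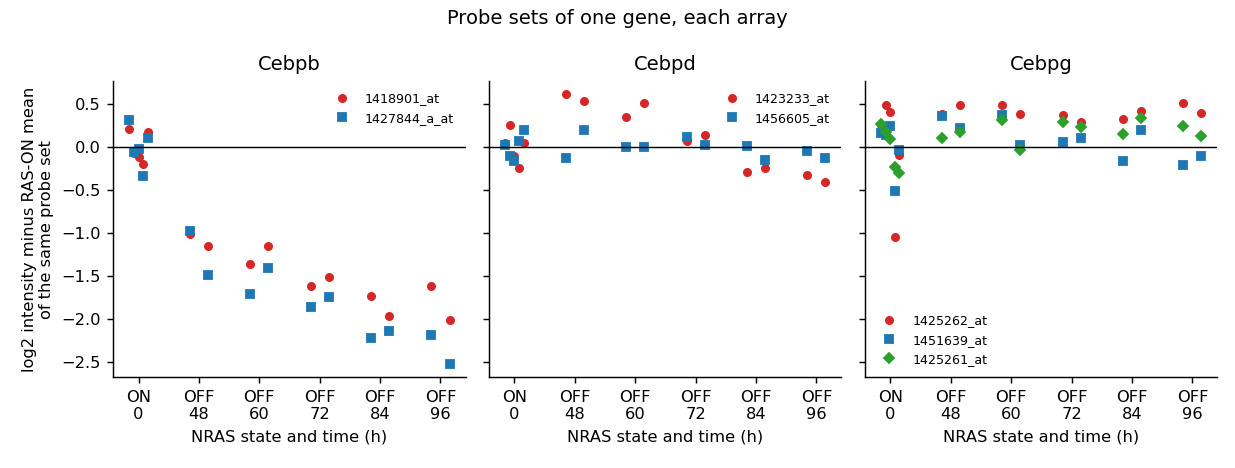
Log2 intensity minus each probe set's RAS-ON mean (vertical axis) for the probe sets of Cebpb, Cebpd and Cebpg in each array by group (horizontal axis). Both Cebpb probe sets are lower in RAS-OFF, with mean changes of -1.51 and -1.82, the dim Cebpd probe set stays near 0, and on all 3 Cebpg probe sets RAS-ON replicates 4 and 5 lie below replicates 1 to 3.

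Each RAS-OFF time was then set against the same 5 RAS-ON arrays, so the 5 comparisons are not independent. Of all genes, 27.4%, 25.8%, 31.8%, 36.8% and 37.6% were called at 48, 60, 72, 84 and 96 h in turn. Cebpa changed by -1.08, -1.15, -1.53, -1.76 and -1.88 log2 units at these times in turn (SE 0.12 each), and all 5 were called (limma adjusted p from 1.51e-05 at 48 h to 4.12e-08 at 96 h). Cebpb changed by -1.08, -1.25, -1.56, -1.85 and -1.81 (SE 0.13 each), also called at all 5. At 48 h the level was already 2.12-fold lower for Cebpa and 2.11-fold lower for Cebpb, and at 96 h the level was 3.68-fold lower for Cebpa and 3.51-fold lower for Cebpb.

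Cebpd rose at first and was below RAS-ON at the end. It was higher by 0.57 ± 0.11 at 48 h (SE; limma adjusted p = 0.001) and by 0.43 ± 0.11 at 60 h (adjusted p = 0.00763), and lower by a change of -0.37 ± 0.11 at 96 h (adjusted p = 0.014). Its differences of 0.10 at 72 h and -0.27 at 84 h were not called (adjusted p = 0.497 and 0.063). The 60 h call was lost without 60 h replicate 2 (0.35, adjusted p = 0.115) and with the mean of both probe sets (0.21, adjusted p = 0.0555). The 96 h call was lost without either 96 h array (-0.40 without replicate 1, adjusted p = 0.0554; -0.33 without replicate 2, adjusted p = 0.103) and against RAS-ON replicates 4 and 5 alone (-0.27, adjusted p = 0.0617), whereas the 48 h call held under all 26 alternative settings. With the mean of both probe sets, the bright and the dim one, the Cebpd change was 0.30 at 48 h and -0.23 at 96 h. Cebpg differed by 0.43, 0.43, 0.33, 0.37 and 0.45 (SE 0.29 each), called at no time.

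**Figure D3:**
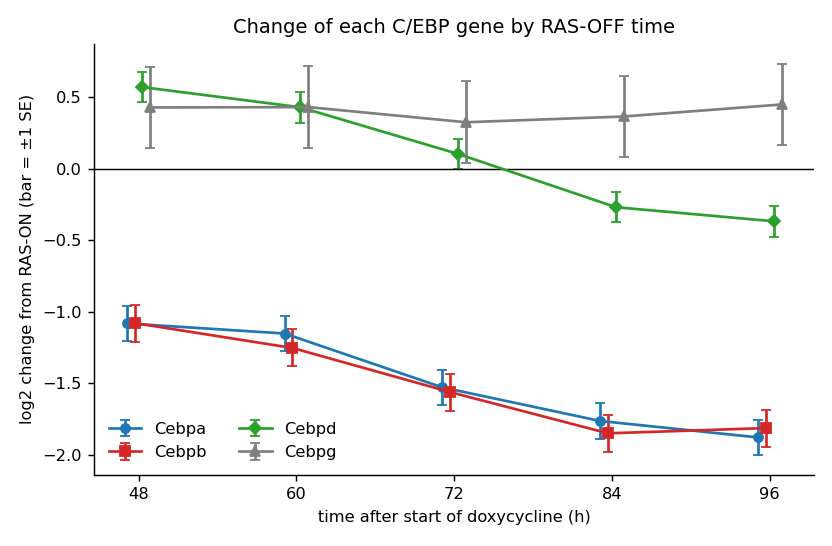
Log2 change of each C/EBP gene against RAS-ON (vertical axis) at 48, 60, 72, 84 and 96 h of doxycycline (horizontal axis), with standard errors of the limma fit as bars and points set slightly apart for each gene. Cebpa and Cebpb are below 0 throughout and lowest at 84 to 96 h, Cebpd goes from 0.57 to -0.37, and Cebpg stays between 0.33 and 0.45.

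The course within the RAS-OFF arrays does not use RAS-ON. Cebpa fell by 0.22 ± 0.03 log2 units per 12 h (SE; limma adjusted p = 0.000693), Cebpb by 0.21 ± 0.03 (adjusted p = 0.00127) and Cebpd by 0.26 ± 0.03 (adjusted p = 0.000111), while Cebpg had a slope of -0.0024 ± 0.08 (adjusted p = 0.988). Of all genes, 8.75% had a called falling slope, and 3 of the 4 members did. The second Cebpb probe set also fell, by 0.29 ± 0.04 per 12 h (adjusted p = 0.00129), and the dim Cebpd probe set had a slope of -0.03 ± 0.03 that was not called; the mean of both Cebpd probe sets fell by 0.14 per 12 h. The test of any difference among the 5 RAS-OFF times called the same 3 members, against 5.45% of all genes; it lost all 3 without replicate 1 of 48 h, 84 h and 96 h together, and Cebpb alone without 48 h replicate 1, 60 h replicate 2 or 84 h replicate 2 (adjusted p = 0.0976, 0.0529 and 0.0564).

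By level, Cebpa ran from RAS-ON down through 48, 60, 72, 84 and 96 h, with overlapping arrays between 48 and 60 h and between 84 and 96 h. Cebpb ran from RAS-ON through 48, 60, 72, 96 and 84 h, overlapping between 48 and 60 h and among the 3 latest times at each step. Cebpd was highest at 48 h, then 60 h, 72 h, RAS-ON, 84 h and 96 h, and RAS-ON overlapped its neighbours at 72 h and 84 h. All neighbours overlapped for Cebpg.

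Among 16310 genes, those whose array profiles lay nearest to Cebpa, by the root mean square difference of centred log2 values over 15 arrays, were Cmtm7 (0.125), B4galnt1, a ganglioside synthase (0.128), and Mfsd13a (0.145). Nearest to Cebpb were Def6 (0.135), Cmtm7 (0.140) and Mfsd13a (0.153). All 4 were lower in RAS-OFF, by changes of -1.63 ± 0.06 for Cmtm7, -1.64 ± 0.09 for B4galnt1, -1.49 ± 0.07 for Mfsd13a and -1.37 ± 0.08 for Def6 (SE). With the mean of all probe sets of a gene the change was -0.91 for B4galnt1 and -0.58 for Mfsd13a. Cmtm7 and Mfsd13a were near both members. This is a description over arrays that share the same groups.

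Genes around the family were read from lists of partners, regulators and targets, with the members themselves left out. Their counts stand beside the 28.7% of genes called lower and 20.1% called higher above, and the median change of all genes, -0.04. The lists are not independent of earlier results on these arrays.

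Of 6 zipper genes listed as partners and not among the members sought here, 3 rose, 1 fell and 2 did not pass. Their median change was 0.27 log2 units. Ddit3, the stress-induced C/EBP homologous protein CHOP, rose by 1.08 ± 0.07 (SE; limma adjusted p = 1.07e-08), and Atf5, a stress-response factor, rose by 0.66 ± 0.09 (adjusted p = 1.69e-05). Batf, which pairs with JUN proteins, changed by -1.19 ± 0.06 (adjusted p = 6.02e-10). Of 9 measured regulators of 12 listed, 4 rose, 4 fell and 1 did not pass (median 0.03). Trib3, a pseudokinase induced by stress, rose by 1.17 ± 0.11 (adjusted p = 5.67e-07) and Trib2, a pseudokinase that promotes C/EBPα degradation, by 0.74 ± 0.06 (adjusted p = 1.98e-07; 0.31 with the mean of its probe sets). The related Trib1 went the other way, changing by -0.35 ± 0.08 (limma adjusted p = 0.00159) and by -0.68 at 96 h. Spi1, which encodes the myeloid factor PU.1, changed by -1.11 ± 0.13 (adjusted p = 3.65e-06), with 9 of 10 RAS-OFF arrays below all RAS-ON arrays.

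The target lists did not move as 1 block. Of 10 measured progenitor targets of C/EBPα, 6 fell, 1 rose and 3 did not pass, with a median of -0.67. The falls included the azurophil granule proteases Elane (-2.07 ± 0.12, SE; limma adjusted p = 3.27e-09) and Prtn3 (-2.01 ± 0.09; adjusted p = 2.45e-10) and the repressor Gfi1 (-1.47 ± 0.09; adjusted p = 3.39e-09). Csf3r, the granulocyte growth factor receptor, rose by 0.74, and Csf1r (-0.17) and Lyz2 (-0.02) did not pass. The median by time went from -0.32 at 48 h to -1.05 at 96 h.

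Of 11 granule and maturation targets of C/EBPε, whose own gene was not analysed here, 7 rose, none fell and 4 did not pass, with 0.30 as the median. The neutrophil collagenase gene Mmp8 rose by 2.16 ± 0.08 (SE; limma adjusted p = 5.79e-11), Mmp9, gelatinase, by 1.20 ± 0.11 (adjusted p = 6.02e-07) and Itgb2l, a neutrophil integrin subunit, by 0.90 ± 0.11 (adjusted p = 8.32e-06; 0.24 with the mean of its probe sets). The abundant S100a8 (0.09) and S100a9 (0.10) did not pass. Mmp8, Mmp9, Ltf, Ngp, Camp and Padi4 also stand in the mature neutrophil list below. Of the C/EBPα targets, Mpo also stands in the MLL-fusion leukemia list and Csf1r in the monocyte list. Lists that share genes are not separate measurements.

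Of 11 inflammatory targets of C/EBPβ and C/EBPδ, 6 fell, 2 rose and 3 did not pass (median -0.21). Arg1, the macrophage arginase, changed by -2.63 ± 0.24 (SE; limma adjusted p = 3.60e-07) and the monocyte chemokine Ccl2 by -2.18 ± 0.13 (adjusted p = 6.22e-09), whereas the cytokine Il1b rose by 1.35 ± 0.11 (adjusted p = 1.59e-07). Arg1 was uneven in RAS-ON, at 7.53 ± 0.80 log2 units (SD, n = 5), and dim in RAS-OFF, with a mean of 4.91. Its change ran from -3.24 to -2.22 across the alternative settings in which it was tested. Of 9 genes listed as amino acid response targets of ATF4 with C/EBP partners, 4 rose, 2 fell and 3 did not pass (median 0.13). That these genes answer to ATF4 or C/EBP here was not tested. Asparagine synthetase, Asns, rose by 1.59 ± 0.06 (adjusted p = 7.10e-11) and Gclm, of glutathione synthesis, by 1.22 ± 0.05 (adjusted p = 1.74e-10), while the serine synthesis gene Psat1 changed by -0.92 ± 0.13 (adjusted p = 2.44e-05). Of 9 nucleolar assembly genes listed beside Cebpz, 4 fell, 1 rose and 4 did not pass (median -0.28), among them Pes1 (-0.72 ± 0.08), Bop1 (-0.68 ± 0.09) and Wdr12 (-0.41 ± 0.08), all ribosome maturation factors that fell. With the mean of probe sets these changes were -0.42, -0.43 and -0.19, and Bop1 changed by -0.43 against RAS-ON replicates 4 and 5 alone.

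**Figure D4:**
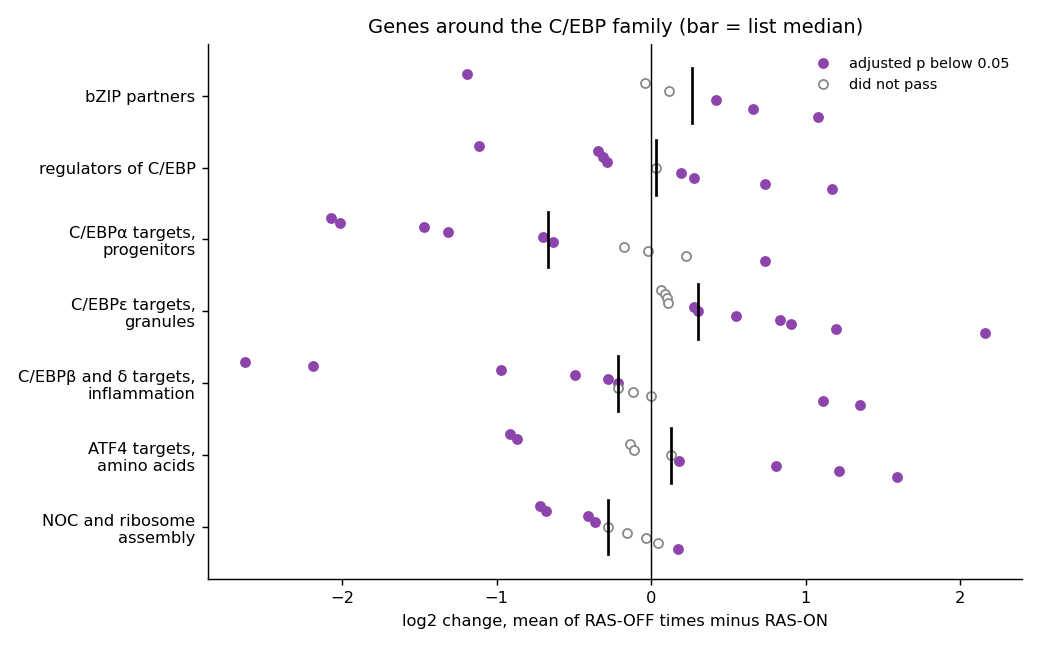
Log2 change of every measured list gene in RAS-OFF against RAS-ON (horizontal axis), 1 row per list of C/EBP partners, regulators and targets; filled points were called at a limma adjusted p below 0.05, and bars are list medians. C/EBPα progenitor targets lie mostly below 0 with a median of -0.67, and called C/EBPε granule targets all lie above 0, up to 2.16.

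Marker lists of spleen cell types and of the leukemia were also read, and they moved in different directions. In bulk RNA, fewer cells of a type and less RNA per cell cannot be told apart. All 9 measured erythroid markers of 12 listed rose, and their summed log2 intensity went from 15.06 to 15.38 across RAS-ON arrays to 16.33 to 16.63 across RAS-OFF arrays. Of 8 measured monocyte markers of 9, 6 fell and none rose, with summed levels of 14.79 to 15.10 in RAS-ON and 13.62 to 14.24 in RAS-OFF; their median change by time was -0.60, -0.75, -1.12, -1.29 and -1.33. Beside Cebpa and Cebpb, which also went lower with time, the part of these markers was not tested.

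Of 9 measured mature neutrophil markers of 10, 8 rose and none fell, with summed levels of 15.67 to 16.00 in RAS-ON and 16.04 to 16.54 in RAS-OFF. Their median changes, from the earliest time to the latest, were 1.19, 1.06, 1.01, 0.52 and 0.40, beside the falling course of Cebpd; the part of these markers in it was not tested. Red pulp macrophage markers rose in 8 of 10 and fell in 2, megakaryocyte markers rose in all 7 measured, stroma and endothelium markers rose in 6 of 8 and fell in 1, and natural killer markers rose in 4 of 5 measured. The MLL-fusion leukemia markers rose in 2, fell in 3 and did not pass in 2, with summed levels of 14.21 to 14.52 in RAS-ON and 13.23 to 13.53 in RAS-OFF. These sums add linear intensities, so the brightest gene weighs most. Here it was Mpo, at 13.90 log2 units in RAS-ON, which changed by -1.32. Cd34 (-1.95) and Myb (-0.62) fell as well, Hoxa10 (0.53) and Kit (0.43) rose, and Hoxa9 and Meis1 did not pass. RMA gives every probe set a value above 0, so a measured marker need not be an expressed one.

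**Figure D5:**
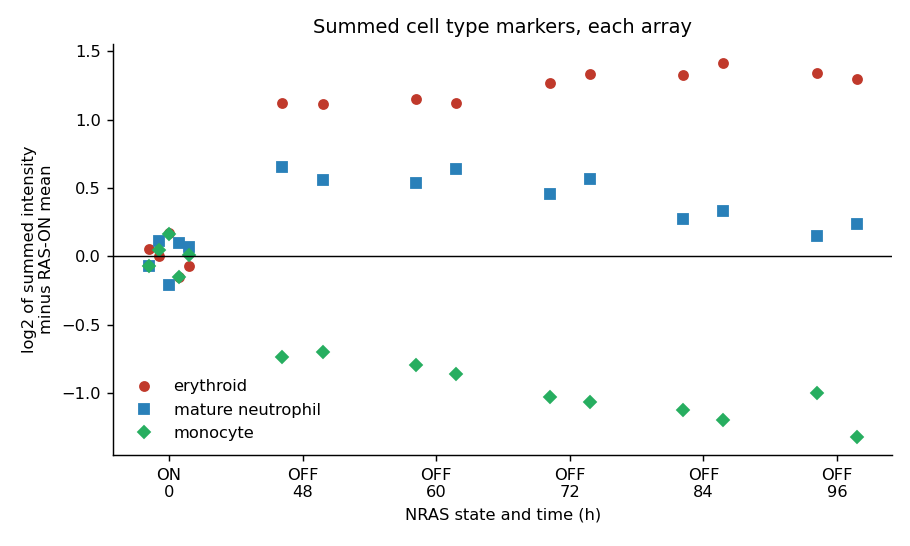
Log2 of the summed intensity of erythroid, mature neutrophil and monocyte markers minus the RAS-ON mean of each list (vertical axis), in each array by NRAS state and hours (horizontal axis). Erythroid sums are higher and monocyte sums lower in every RAS-OFF array, and neutrophil sums are highest at 48 to 60 h and decline toward 96 h.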

How the data were processed

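The deposited values are intensities that the authors computed with RMA, according to the submitters' processing notes, 1 for each probe set on each array; the RMA version is not given in the sources used here. RMA normalizes between arrays, so a shift of most genes one way would not show. The intensities are on a linear scale, and log2 was taken. Probe sets were named by the platform annotation supplied with the values. Each gene was read from its brightest probe set, and no filter on dim genes was used. Levels were not compared between probe sets.

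Groups came from the sample titles. The labels do not say that replicates came from separate animals, so p-values reflect only how these samples spread, and that spread may be technical. No batch is given in the labels. The fit used limma 3.58.1 (R 4.3.3) and gave each of 6 groups its own mean, two-sided tests and Benjamini-Hochberg adjustment over 18193 genes. The code was tested on simulated data.

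The members and gene lists were chosen with earlier results of these data known. Named genes were the members, Nras and up to 3 called genes of each list with the largest change. Also named were the 3 genes most like each member that changed by at least 0.5. Csf3r, Csf1r, Lyz2, S100a8, S100a9, Hoxa9, Hoxa10, Meis1, Kit, Mpo, Cd34, Myb, Trib1, Prg2 and Mcpt8 were named after their values were seen. Alternatives varied the filter, probe sets, centring, variance model, array weights, replicate block, arrays and groups used. Motifs were counted in RefSeq promoter windows of GRCm38.p6.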

Additional observations from a re-analysis of the deposited data

Results flagged for a closer look

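Levels differed between RAS-OFF times for 3 of the 4 measured C/EBP genes, against 5.45% of all genes. The limma test of any difference among the 5 times does not use RAS-ON. The adjusted p was 0.0115 for Cebpa, 0.0181 for Cebpb and 0.00233 for Cebpd. Cebpa and Cebpb went lower between 48 h and 96 h, and Cebpd passed from above RAS-ON to below it. Within RAS-ON, no single array stood far enough from the rest on any of the 8 probe sets to be picked out; the largest ratio of gap to range was 0.634, for a Cebpg probe set, against a limit of 0.71.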

How the results depend on the processing

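Across 26 alternative settings, 15 of which left out 1 array each, Cebpa and Cebpb kept their direction and call in the RAS-OFF mean, at every time and in the slope; the mean change ran from -1.64 to -1.38 for Cebpa and from -1.67 to -1.46 for Cebpb. The Cebpd slope (-0.27 to -0.14) and 48 h rise also kept theirs. Cebpd at 84 h passed under 6 of 26, and its 96 h call was also lost with only the groups compared (limma adjusted p = 0.0513) and without replicate 1 of 48, 84 and 96 h (adjusted p = 0.0901). With RAS-ON replicates 1 to 3 only, Cebpg turned to -0.056 at 72 h and -0.016 at 84 h, and its slope ran from -0.015 to 0.010 with 1 array left out and was -0.021 without replicate 1 of 48, 84 and 96 h; none of these was called. Without replicate 1 of 48, 84 and 96 h, 0 members were called for any difference among times (limma adjusted p = 0.113, 0.14 and 0.129 for Cebpa, Cebpb and Cebpd), with fewer arrays in the fit. Testing every probe set called 15857, over more features.

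Same-numbered arrays showed no consistent shared deviation over all genes (correlations -0.24 to 0.22). The 2 arrays of a RAS-OFF time deviate as mirror images, so the check on replicates 1 and 2 is largely the same. A weak pairing would not show. With the replicate block, 7970 genes were called against 8875. Under the block Cebpd turned to -0.055 in the RAS-OFF mean and -0.045 at 72 h, and Cebpg to -0.046 at 72 h and -0.0055 at 84 h, none called. Replicate numbers 3, 4 and 5 occur only in RAS-ON. The block therefore sets RAS-OFF against RAS-ON replicates 1 and 2 alone. The Nras call was lost with the block (-0.19, limma adjusted p = 0.185) and with RAS-ON replicates 1 to 3 only (-0.20, adjusted p = 0.079). The other named genes kept their calls where tested (Arg1 and Ccl2 were not tested without the dimmest 40% of genes), but with the mean of probe sets the changes of Itgb2l, Trib2, Pes1, Bop1, Wdr12, B4galnt1 and Mfsd13a shrank by over 1.5 times. A time left with a lone array was taken to have the spread of the remaining groups. The number of arrays, 2 at each RAS-OFF time, limits the precision.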
